A study of Oryza sativa Japonica Group with 6 samples.

Results

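The genes described here are the 6 subunit genes of the MCM helicase, MCM2 to MCM7, and PCNA, 7 features of the 93655 in the deposited table. They were chosen by gene ID for their role in DNA replication, and all 7 were measured in every library. RNA was sequenced from rice endosperm at 7 days after pollination, in 3 libraries labelled nf-yc11 and 3 labelled wild type (WT). The series title gives the background as ZH11, a japonica rice cultivar, and the mutant is named for a subunit of NF-Y, a transcription factor that binds CCAAT boxes. The labels give neither the allele nor the locus of the mutation, so the mutant libraries are called by their label and the transcript of the mutated gene was not analysed here.

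Before a cell copies its DNA, the products of MCM2 to MCM7 are loaded as a ring at each replication origin, and this ring later becomes the motor that unwinds the double helix. PCNA forms a separate ring behind the fork, a sliding clamp that keeps the DNA polymerases on their template and recruits enzymes that join and repair the new strands. In cereal endosperm, nuclei first divide and the cells later go on copying DNA without division, which is called endoreduplication, so transcripts of these genes accompany both mitotic cycles and endocycles.

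Depth was similar in both groups: the read totals behind the values were 15735968 to 16989039 in the nf-yc11 libraries and 14593215 to 21984785 in the WT libraries. Values were FPKM, the reads of a gene scaled to its length and to the read total of the library, and they could be turned back into whole reads. The endosperm marker NF-YB1 was abundant in both groups, at 240 ± 4.42 FPKM in nf-yc11 and 439 ± 14.7 FPKM in WT libraries (SD, n = 3 each, here and below). Of 5 endosperm marker IDs none was at 0, and 1 was called higher and 3 lower in nf-yc11 libraries. Of all tested features 49.1% were called, 29.8% higher and 19.3% lower. OSH1, a homeobox gene of the embryo's shoot meristem, was below the filter of 1 FPKM in the mean, at 0.939 ± 0.343 FPKM in nf-yc11 and 0.805 ± 0.257 FPKM in WT libraries. Other embryo marker IDs were above that filter. ROC1 was at 6.90 ± 0.791 FPKM in nf-yc11 and 6.94 ± 0.151 FPKM in WT libraries, and OLE18 and OS04G0546500 were far higher, as given below. As the samples are bulk tissue, fewer cells of a type and less RNA per cell cannot be told apart. No label ties the replicates of a group to different plants. Every p-value below is therefore set against library-to-library spread alone, and that spread could be technical.

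PCNA transcripts were higher in the endosperm of the nf-yc11 libraries, whereas none of the 6 MCM subunit genes passed the test in either direction. Of 22093 features averaging 1 FPKM or more, 49.1% passed at an adjusted p under 0.05, 29.8% higher and 19.3% lower in nf-yc11 libraries (limma, Benjamini-Hochberg adjustment). These were 6586 higher and 4256 lower, but 5015 to 5522 higher and 5211 to 5732 lower under 4 other scalings between libraries. Of the 7 replication genes 1 passed, and 2 had an unadjusted p under 0.05, PCNA and MCM5. The median log2 change of the 7 genes was −0.041, beside 0.060 over all features tested. On the log2(FPKM + 1) scale their largest change was that of PCNA, at 0.32, and MCM5 had the next largest, at 0.28. As ratios of group means these were close, 1.26-fold for PCNA and 1.24-fold for MCM5.

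PCNA (OS02G0805200, on chromosome 2) was by far the most abundant of the 7 genes. It stood at 69.9, 67.6 and 66.9 FPKM in nf-yc11 replicates 1 to 3, against 53.9, 52.6 and 56.2 FPKM in WT replicates 1 to 3. Every nf-yc11 library lay above every WT library, and the libraries of a group differed little. The mean was 1.26-fold higher in nf-yc11 libraries, 68.1 ± 1.54 FPKM against 54.2 ± 1.85 FPKM in WT libraries. On the log2(FPKM + 1) scale the change was 0.32 ± 0.04 (SE, 95% confidence interval 0.23 to 0.42), with an adjusted p of 0.000665 (limma). The values rested on 1214 to 1279 reads per library in nf-yc11 and 923 to 1333 in WT, and the spread within each group was close to counting error, with a coefficient of variation of 2.26% in nf-yc11, where counting alone gives 2.84%, and 3.42% in WT, where counting gives 3.12%. Each of 4 scalings between libraries left the gene called, with log2 changes of 0.21 to 0.26 (adjusted p = 0.00164 to 0.0057, limma).

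Markers of other seed parts were measured beside this rise. The 4 embryo marker IDs, 1 of them called higher and 3 not called or not tested, summed to 4832 to 5231 FPKM in nf-yc11 libraries and to 4156 to 4498 FPKM in WT libraries. The ID called higher, OS04G0546500, was at 2583 ± 118 FPKM in nf-yc11 and 2025 ± 13.4 FPKM in WT libraries. It was higher in every nf-yc11 library (log2 change 0.35, adjusted p = 0.000298, limma). Among the others OLE18, an oil-body protein gene, was at 2442 ± 84.8 FPKM in nf-yc11 and 2302 ± 158 FPKM in WT libraries and was not called. OS04G0546500 and OLE18 gave nearly all of the embryo sum, whereas OSH1 and ROC1 overlapped between groups. Whether the 4 IDs mark the embryo alone was not tested. The 2 markers of green pericarp that the gene table places summed to 1109 to 1234 FPKM in nf-yc11 and 1117 to 1142 FPKM in WT libraries, and neither was called. Another ID written for green pericarp, OS09G0346500, was kept out of that sum because its symbol was out of place in the gene table. It was at 272 ± 7.14 FPKM in nf-yc11 and 438 ± 3.82 FPKM in WT libraries, lower in every nf-yc11 library (log2 change −0.68, adjusted p = 1e-05, limma). MADS29, a MADS-box gene of the nucellus, was lower in nf-yc11 libraries, at 33.8 ± 1.36 FPKM, against 41.8 ± 0.793 FPKM in WT libraries (log2 change −0.30). The part of these seed tissues in the level of PCNA was not tested.

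**Figure D1:**
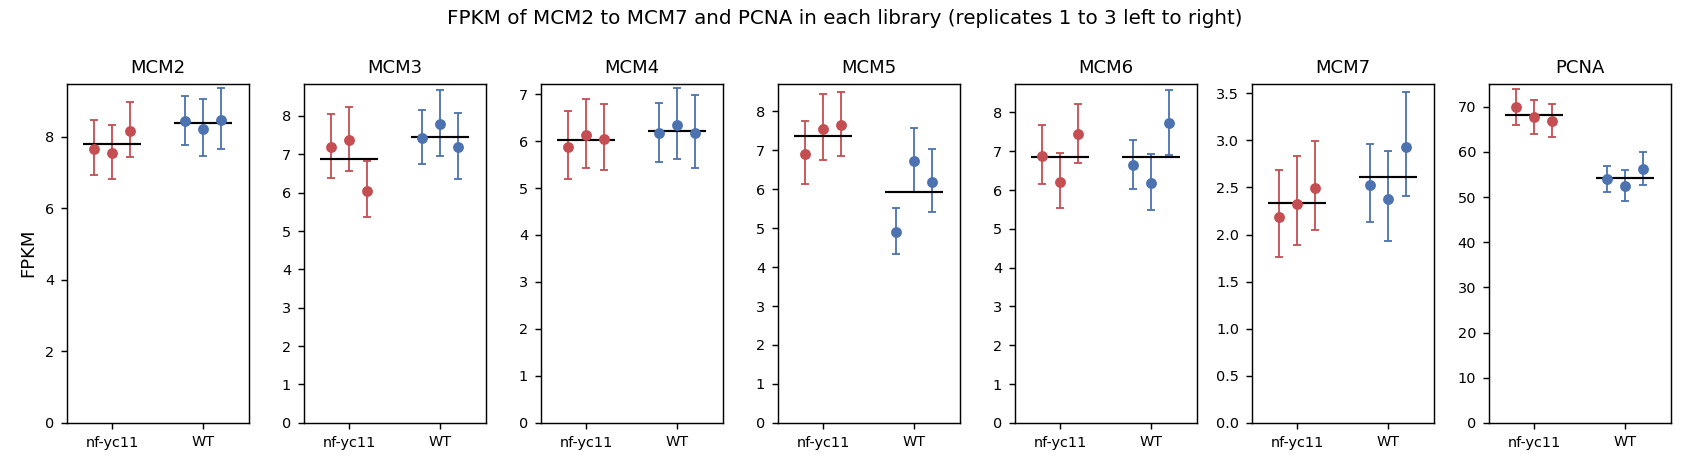
FPKM of MCM2 to MCM7 and PCNA in each nf-yc11 library (red, left) and WT library (blue, right), with axes that start at 0 and differ between panels. Points are libraries, bars are exact 95% Poisson intervals that cover counting error only, and black lines are group means; in the PCNA panel the nf-yc11 libraries sit at 66.9 to 69.9 FPKM, above the WT libraries at 52.6 to 56.2 FPKM.

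Among the subunits of the helicase, MCM5 (OS02G0797400, on chromosome 2) moved most. It was at 6.90, 7.56 and 7.64 FPKM in nf-yc11 libraries and at 4.91, 6.71 and 6.18 FPKM in WT libraries. All nf-yc11 libraries were above all WT libraries, but nf-yc11 replicate 1 and WT replicate 2 almost met. The mean was 1.24-fold higher in nf-yc11 libraries (log2 change 0.28 ± 0.11, 95% interval 0.02 to 0.54) and did not pass the test (adjusted p = 0.0701, limma). WT replicate 1 was low: its 280 reads gave an exact 95% Poisson interval of 4.35 to 5.52 FPKM, below that of WT replicate 2, 5.94 to 7.56 FPKM from 272 reads. Within WT the coefficient of variation of MCM5 was 15.6%, where counting alone gives 6.2%. Without WT replicate 1 the log2 change was 0.17 (adjusted p = 0.151, limma). Under the 4 scalings it was smaller than in the values as deposited, 0.19 to 0.24, and not called (adjusted p = 0.12 to 0.199, limma). The gene passed with voom on the recovered reads (0.35, adjusted p = 0.009, limma) and with RAP gene IDs only (adjusted p = 0.0474, limma). It also passed with a block for replicate number (adjusted p = 0.0458, limma) and without WT replicate 2 (0.36, adjusted p = 0.0417, limma).

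MCM2 (OS11G0484300, on chromosome 11), whose protein closes the ring against that of MCM5, had the opposite sign. It was at 7.67, 7.55 and 8.17 FPKM in nf-yc11 libraries and at 8.44, 8.23 and 8.49 FPKM in WT libraries. Every nf-yc11 library was lower, although nf-yc11 replicate 3 and WT replicate 2 almost met. The gene did not pass (log2 change −0.09 ± 0.06, 95% interval −0.23 to 0.04, adjusted p = 0.216, limma). It passed when the 100 most abundant features were left out of the library totals (−0.19, adjusted p = 0.0328, limma).

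MCM4 (OS01G0544450, on chromosome 1), which with MCM6 and MCM7 makes up the core that unwinds DNA in biochemical work on yeast and animal proteins, varied least of the subunits. It was at 5.88, 6.13 and 6.05 FPKM in nf-yc11 libraries and at 6.17, 6.34 and 6.17 FPKM in WT libraries. The nf-yc11 libraries were all lower, although nf-yc11 replicate 2 almost met WT replicates 1 and 3. Its coefficient of variation was 2.16% in nf-yc11 and 1.57% in WT libraries, less than the 6.04% and 5.82% that counting alone gives. The gene did not pass (log2 change −0.041 ± 0.059, 95% interval −0.18 to 0.10, adjusted p = 0.593, limma). Under the 4 scalings its log2 change was −0.13 to −0.076, still not called (adjusted p = 0.106 to 0.32). MCM6 (OS05G0235800, on chromosome 5) was level, at 6.88, 6.22 and 7.44 FPKM in nf-yc11 libraries and at 6.64, 6.18 and 7.72 FPKM in WT libraries. The nf-yc11 range lay inside that of WT, and the sign of the log2 change of 0.0019 (95% interval −0.23 to 0.23) turned under each of the 4 scalings. MCM7 (OS12G0560700, on chromosome 12) was the lowest of the 7 genes, at 2.19, 2.32 and 2.49 FPKM in nf-yc11 libraries and 2.52, 2.38 and 2.93 FPKM in WT libraries. With only 92 to 113 reads per library in nf-yc11 and 99 to 148 in WT, its 95% interval of the log2 change was wide, −0.35 to 0.12 (adjusted p = 0.388, limma). Its log2 change was −0.11, and −0.19 to −0.14 under the 4 scalings.

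MCM3 (OS05G0476200, on chromosome 5), the neighbour of MCM5 in the ring, was at 7.19, 7.37 and 6.06 FPKM in nf-yc11 libraries and 7.43, 7.78 and 7.18 FPKM in WT libraries. Its nf-yc11 replicate 3 was apart from the other libraries, and the log2 change was −0.11 with it (95% interval −0.31 to 0.09, adjusted p = 0.318, limma) and −0.031 without it. Under the 4 scalings it was −0.20 to −0.15 and not called (adjusted p = 0.0837 to 0.176, limma). Of the 7 genes, 4 had groups that did not overlap, PCNA and MCM5 higher, MCM2 and MCM4 lower, where 59.7% of all tested features had such groups. The 95% intervals of the 6 subunits together reached from −0.35 to 0.54 on the log2 scale.

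**Figure D2:**
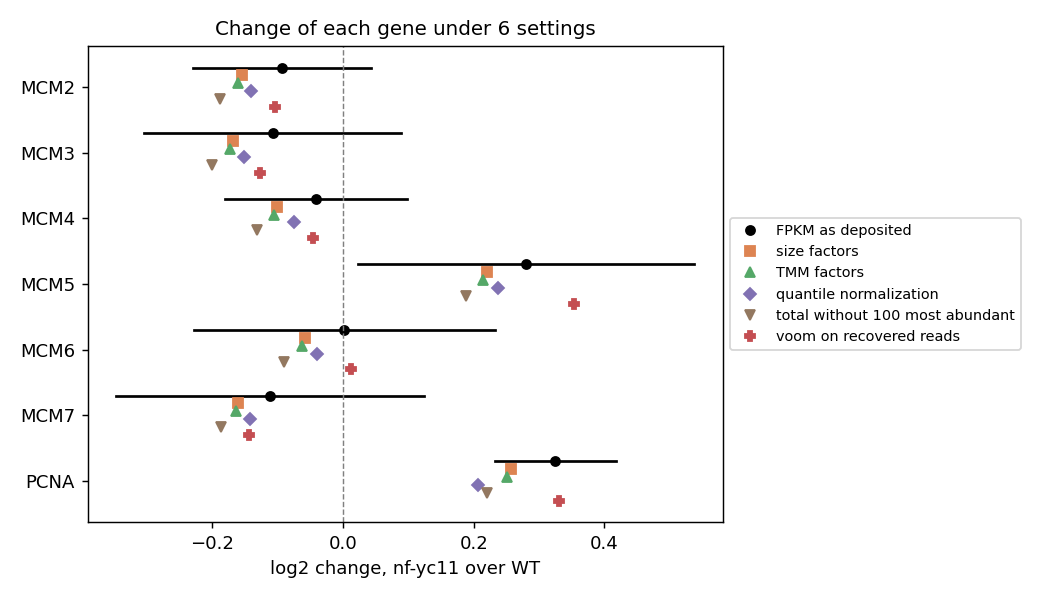
The log2 change of each gene, nf-yc11 over WT, with its 95% confidence interval from the values as deposited (black) and the values under 4 scalings and under voom on recovered reads (coloured symbols). PCNA stays above 0 in all of them, from 0.21 to 0.33; MCM5 stays above 0 and MCM6 lies on both sides of it.

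The 6 subunits join the ring in equal numbers, so their levels per length were set side by side. Their sum overlapped between groups, at 37.2 ± 0.574 FPKM in nf-yc11 and 37.5 ± 1.29 FPKM in WT libraries. In nf-yc11 libraries the order of mean level was MCM2, MCM5, MCM3, MCM6, MCM4 and MCM7. From MCM2 down to MCM6 each neighbouring pair had overlapping libraries there, whereas MCM4 lay below MCM6 and MCM7 far below MCM4. In WT libraries the order was MCM2, MCM3, MCM6, MCM4, MCM5 and MCM7, where MCM2 stood clear of MCM3, MCM3 to MCM5 overlapped neighbour by neighbour, and MCM7 was again apart. The highest subunit exceeded MCM7 by 3.25-fold to 3.5-fold in nf-yc11 libraries and by 2.9-fold to 3.47-fold in WT libraries. Without MCM7 the highest exceeded the lowest by 1.23-fold to 1.35-fold in nf-yc11 and by 1.33-fold to 1.72-fold in WT libraries. PCNA was at 8.19 to 9.11 times the FPKM of MCM2 in nf-yc11 libraries and at 6.38 to 6.62 times in WT libraries.

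As shares of the summed FPKM of the subunits, which a factor common to all genes of a library cannot alter, MCM5 held 18.8%, 20.3% and 20.2% in nf-yc11 libraries and 13.6%, 17.8% and 16.0% in WT libraries. Its mean share was 3.97 percentage points higher in nf-yc11 libraries, and between 2.87 and 4.99 points when any 1 library was left out. The share of MCM2 was 20.9 ± 0.634% in nf-yc11 and 22.4 ± 0.837% in WT libraries, lower in every nf-yc11 library. The shares of a library are parts of one whole, so a larger share of MCM5 leaves less for the other subunits together. The lower share of MCM2 is therefore not a separate result. The shares of MCM3, MCM4, MCM6 and MCM7 overlapped between groups, with that of MCM7 at 6.27 ± 0.309% in nf-yc11 and 6.96 ± 0.628% in WT libraries. Equal shares would be 16.7%.

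**Figure D3:**
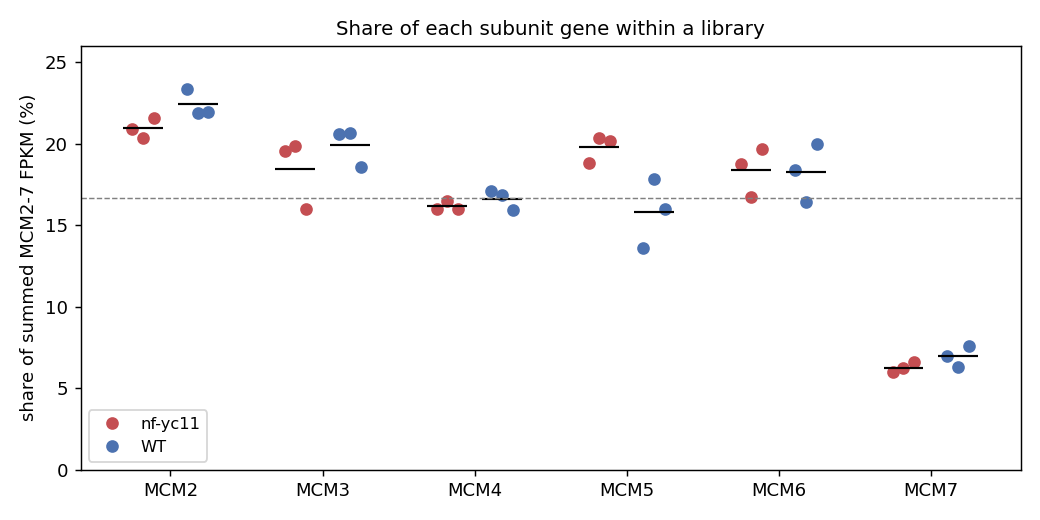
Share of each subunit gene in the summed FPKM of MCM2 to MCM7, in percent, for nf-yc11 libraries (red, left) and WT libraries (blue, right); lines are group means and the dashed line is an equal share of 16.7%. MCM5 is higher in every nf-yc11 library, MCM2 is lower, and MCM7 is the lowest in both, at a mean of 6.27% in nf-yc11 and 6.96% in WT libraries. As parts of one whole, the shares of a library depend on each other.

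PCNA and MCM5 were also set against the subunits as ratios within a library, 11 in all: PCNA over each subunit and MCM5 over each of the other 5. These numerators had the largest changes of the genes described, in these same libraries, and ratios with the same numerator share its values. Ratios that do not overlap between groups are therefore no separate support for those changes. PCNA over MCM4, for example, was 11.89, 11.03 and 11.06 in nf-yc11 libraries and 8.74, 8.30 and 9.12 in WT libraries. PCNA was higher relative to MCM2, MCM3, MCM4, MCM6 and MCM7 in every nf-yc11 library, by 0.33 to 0.49 on the log2 scale. Each of these 5 ratios gave p = 0.1 in a two-sided exact permutation test, the smallest that 3 against 3 libraries allow, and an adjusted p of 0.122 over the 11 ratios, so none can pass at this size. PCNA over MCM5 was 10.1, 8.95 and 8.76 in nf-yc11 libraries and 10.99, 7.83 and 9.10 in WT libraries, ranges that overlapped (difference 0.0064 on the log2 scale, exact permutation p = 1). MCM5 over MCM2 was 0.900, 1.001 and 0.935 in nf-yc11 libraries, against 0.581, 0.815 and 0.728 in WT libraries, again with no overlap (exact permutation p = 0.1). Of the 5 ratios of MCM5, that to MCM6 overlapped (exact permutation p = 0.3) and the other 4 did not.

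The genes around the helicase and the clamp in the replication pathway were taken from a list of gene IDs written from general knowledge of rice genes. Of these, 42 were in the table, and 41 were kept after 1 whose symbol was out of place was left out. Of 37 tested, 8 were higher, 6 lower and 23 not called, with a median log2 change of 0.11, and under the 4 scalings 4 to 5 were higher and 8 to 9 lower. The share called, 37.8%, stands beside 49.1% of all features. Of these IDs, 25 of those tested were found by name in a gene table on the chromosome their ID gives, and only these are named below. They held 6 higher, 2 lower and 17 not called, with a median of 0.12. Their log2 changes ran from −0.37 to 0.59, but those of all 37 tested ran from −1.31 to 0.59. The largest fall was that of OS02G0511900, an ID whose symbol the gene table does not hold. It was at 1.86 ± 0.403 FPKM in nf-yc11 and 6.05 ± 0.234 FPKM in WT libraries (adjusted p = 0.00017, limma).

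The clamp loader, replication factor C, opens PCNA and sets it on DNA. Of its 5 genes 2 rose and 3 were not called, a share of 40% called beside 49.1% of all tested features. RFC2 was at 26.4, 29.3 and 26.9 FPKM in nf-yc11 libraries and at 17.6, 18.1 and 17.9 FPKM in WT libraries, well apart and 1.54-fold higher in the mean (log2 change 0.59 ± 0.05, adjusted p = 0.000175, limma). RFC4 was at 15.0 ± 1.47 FPKM in nf-yc11 and 11.9 ± 0.143 FPKM in WT libraries (log2 change 0.30, adjusted p = 0.0141, limma), but it missed the threshold once the 100 most abundant features were left out of the totals (adjusted p = 0.0567). RFC3 was at 13.6 ± 0.887 FPKM in nf-yc11 and 12.4 ± 0.422 FPKM in WT libraries and was not called.

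FEN1, a nuclease that PCNA recruits to trim the flaps of lagging-strand fragments, is encoded by a pair of genes. FEN1B was at 36.9, 33.3 and 35.4 FPKM in nf-yc11 libraries, against 27.2, 26.6 and 25.7 FPKM in WT libraries. It rose 1.33-fold (log2 change 0.40 ± 0.05, adjusted p = 0.000841, limma), with no overlap between groups. FEN1A, which the naming rule did not pick and which was added after its values were seen, was at 14.3 ± 0.0507 FPKM in nf-yc11 and 12.8 ± 0.459 FPKM in WT libraries (log2 change 0.15, adjusted p = 0.0426, limma). None of the 4 scalings kept this call (adjusted p = 0.199 to 0.443, limma), nor did leaving out any 1 library.

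Replication protein A, which coats the unwound single strands, had 5 of 6 genes not called and 1 higher, 16.7% called beside 49.1% of all features. That gene, RPA32-3, was at 22.2 ± 0.893 FPKM in nf-yc11 and 19.4 ± 1.48 FPKM in WT libraries (log2 change 0.19, adjusted p = 0.0474, limma), and under the 4 scalings its adjusted p was 0.158 to 0.304. Leaving out any 1 library but WT replicate 3 also ended the call (adjusted p = 0.0512 to 0.137). RPA32-2 went the other way, at 12.7 ± 0.693 FPKM in nf-yc11 and 14.4 ± 0.436 FPKM in WT libraries (log2 change −0.16, adjusted p = 0.0538, limma), and passed under each of the 4 scalings (adjusted p = 0.00949 to 0.0164). RPA32-1 was at 8.19 ± 0.896 FPKM in nf-yc11 and 7.01 ± 0.419 FPKM in WT libraries and was not called.

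None of the 5 genes of the origin recognition complex, which marks origins and loads the MCM ring, was called, beside 49.1% of all features. ORC1 was at 11.8 ± 0.694 FPKM in nf-yc11 and 11.1 ± 0.867 FPKM in WT libraries, ORC2 at 10.2 ± 0.828 FPKM in nf-yc11 and 9.30 ± 0.626 FPKM in WT libraries, and ORC6 at 7.63 ± 0.326 FPKM in nf-yc11 and 6.88 ± 0.608 FPKM in WT libraries. The libraries of both groups overlapped in all 5, where 59.7% of all tested features had groups that did not. MCM9, a relative of the ring subunits that acts in DNA repair in animals, fell 1.33-fold in nf-yc11 libraries. It was at 5.56, 5.73 and 5.54 FPKM there, against 7.26, 7.93 and 7.27 FPKM in WT libraries (log2 change −0.36 ± 0.06, adjusted p = 0.00346, limma). MCM8, its partner in animals, had 0 reads in every library, which allows up to 3 reads by counting error.

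RBR2, a retinoblastoma-related gene whose family takes part in the control of S-phase genes, was at 10.6, 11.3 and 10.3 FPKM in nf-yc11 libraries and at 14.3, 14.0 and 14.1 FPKM in WT libraries. It fell 1.32-fold, with the groups well apart (log2 change −0.37 ± 0.05, adjusted p = 0.0014, limma). Thymidine kinase (TK), which salvages a DNA precursor, was at 8.99 ± 0.171 FPKM in nf-yc11 and 7.79 ± 0.884 FPKM in WT libraries and was not called (log2 change 0.19). Without WT replicate 3 it passed (0.26, adjusted p = 0.0301, limma), and without WT replicate 1 the change was 0.12. WEE1, a kinase that holds back mitosis and is expressed in endoreduplicating maize endosperm, was at 4.67 ± 0.448 FPKM in nf-yc11 and 3.596 ± 0.419 FPKM in WT libraries (log2 change 0.30, adjusted p = 0.0454, limma). None of the 4 scalings kept it called (adjusted p = 0.0708 to 0.122), nor did leaving out any 1 library but nf-yc11 replicate 2 (adjusted p = 0.0605 to 0.127).

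**Figure D4:**
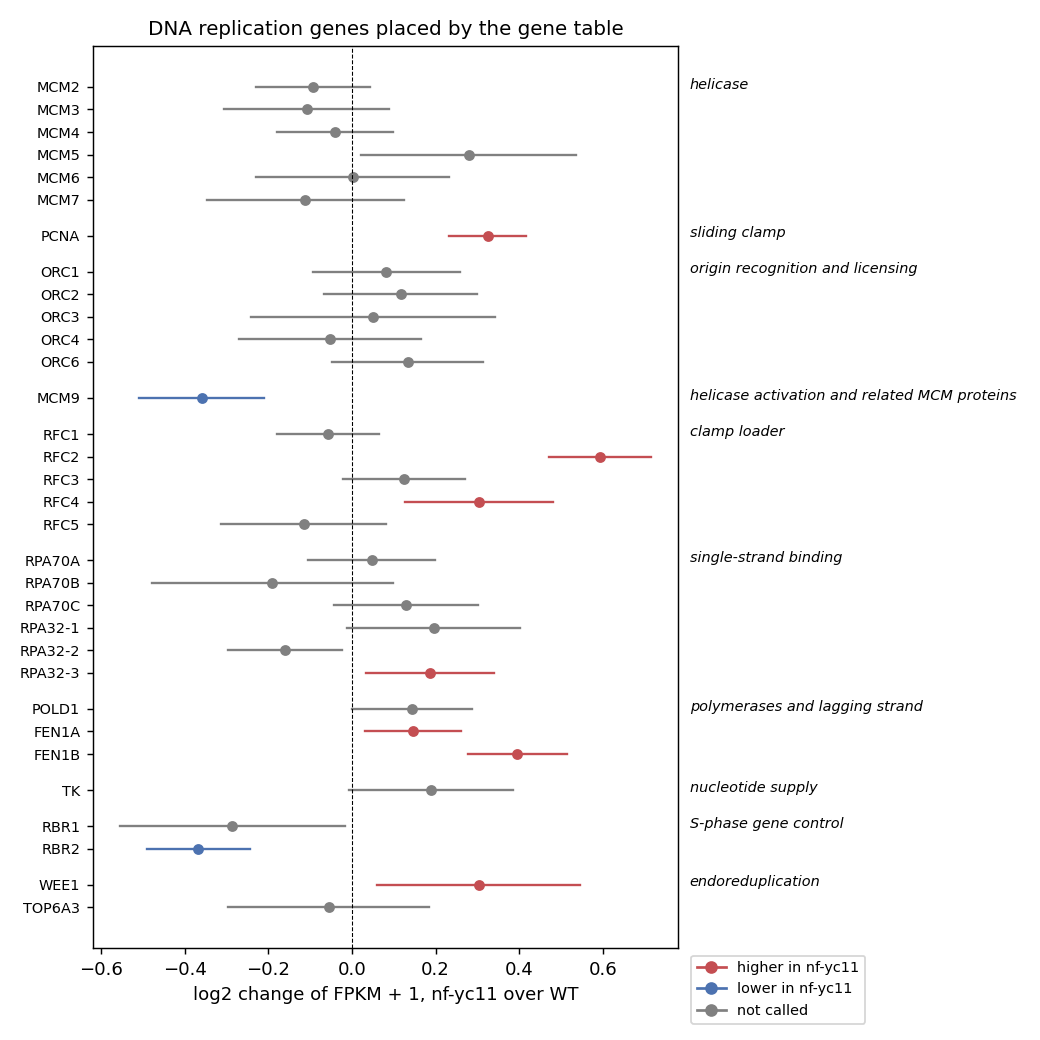
The log2 change, nf-yc11 over WT, of the helicase and clamp genes and of the replication genes found in the gene table, grouped by role, with 95% confidence intervals. Red genes were called higher, blue genes lower and grey genes not called at an adjusted p under 0.05. Among the genes drawn, RFC2 at 0.59, FEN1B at 0.40 and PCNA at 0.32 are the highest called. RBR2 at −0.37 and MCM9 at −0.36 are the lowest drawn, and larger falls among IDs not found in the gene table are not shown.

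Over the 6 libraries, the 7 genes' mean profile of centred log2(FPKM + 1) values spanned only −0.061 in WT replicate 1 to 0.034 in nf-yc11 replicate 3. Among 12687 other features with RAP IDs and a mean of at least 5 FPKM, the profiles most like it were those of OS04G0177600 (Pearson r = 0.995) and OS01G0814700 (r = 0.987), which the gene table does not name. OS04G0177600 was at 14.6 to 15.2 FPKM in nf-yc11 and 13.01 to 15.2 FPKM in WT libraries. With so many candidates, 6 points and a profile this flat, such values describe these libraries only.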

How the data were processed

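The authors deposited 1 table of FPKM values, a column for each of 6 libraries. CASAVA 1.7, HISAT2 2.0.5 and DESeq are named, per the submitters' processing notes. What counted the reads, with which strand setting, and on which build and gene models, was not given in the sources used here. Coordinates are left out, and reads of an overlapping antisense gene cannot be told apart. The members and lists were chosen with earlier results of these data known.

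Whole reads were recovered from the steps of the FPKM values for 36189 of 36189 features above 0, within 0.0001. Changes came from limma 3.58.1 (R 4.3.3), fitted to log2(FPKM + 1), a scale that understates the change of low genes, with a variance trend, no covariates and features of at least 1 FPKM in the mean. A fold given in the text divides the group means of FPKM. An exact permutation of 3 against 3 cannot go below 0.1.

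IDs in the table carry no names. All 7 members and 27 of 43 pathway symbols were found on the chromosome their ID gives (for 3 of the 27, their order along it could not be checked) in a RefSeq gene table of assembly ASM3414082v1; 1 pathway symbol and 1 marker symbol were out of place and left out of the lists, 15 pathway symbols were not in it and are counted but unnamed, and 1 ID found there was not in the FPKM table. Named were the members, in each part of the pathway the most abundant gene and up to 3 with the smallest p, and the 2 features most alike; these genes were thus picked partly by their values, and FEN1A was added outside the rule. The closing section gives the alternatives. Python 3.11.15 with scipy 1.17.1 and matplotlib 3.10.9 made the rest.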

Additional observations from a re-analysis of the deposited data

How the results depend on the processing

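PCNA kept its direction and its call in all 17 alternatives, with log2 changes of 0.21 to 0.33, and 0.30 to 0.35 when 1 library was left out. MCM3, MCM4 and MCM7 kept their direction and stayed uncalled in each alternative run, with MCM7 too low for the filter of 5 FPKM. The shares were not recomputed under quantile normalization. MCM2 passed once the 100 most abundant features were left out of the totals (−0.19), and MCM5 passed with the replicate block (0.28, adjusted p = 0.0458, limma), voom on recovered reads (0.35) and RAP gene IDs only (0.28). With any 1 library removed, MCM5 lay between 0.17 and 0.36. The members called were therefore 2 rather than 1 in those 4 settings, and 1 to 2 when 1 library was left out. The causes of these changes were not tested. MCM6 turned negative with size factors (−0.058), TMM factors (−0.063), quantile normalization (−0.040) and the total without the 100 most abundant features (−0.090), and lay between −0.060 and 0.080 with any 1 library removed. ORC1 turned to −0.015 with that total.

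Of all features, 10842 were called (6586 higher, 4256 lower), and 8320 to 11696 in the alternatives. Higher and lower calls numbered 5522 and 5211 under size factors, 5433 and 5300 under TMM, 5403 and 5273 after quantile normalization, and 5015 and 5732 with that total. Pathway genes called numbered 14, and 8 with only genes found in the gene table, an alternative chosen after seeing the data that has fewer genes. The 15 named pathway genes kept direction and call in 212 of 254 refits. Same-numbered libraries deviated from their group means with correlations of −0.05, 0.0042 and −0.048, so no pairing by number was seen. With 3 libraries in a group this check cannot exclude a pairing. The block ended the calls of FEN1A and WEE1 as well. Depth limits MCM7 most, with 92 to 148 reads per library.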
